A study of Mus musculus with 6 samples.

Results

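Macrophages divide arginine between nitric oxide and ornithine, and 10 mouse genes that set this division and the polyamine synthesis downstream of it are described here: Arg1, Arg2, Nos2, Slc7a2, Odc1, Azin1, Oaz1, Sat1, Srm and Sms. They were taken by name from the 38087 gene identifiers of the deposited table, and each of the 10 was found there under 1 identifier. The set was chosen by the values of Arg2, which rose in these same libraries, so the Arg2 values are given as a description with no test. The other members were known along with it, and their adjusted p-values describe these libraries only. Marrow cells of C57BL/6J males, 8 to 10 weeks old, were turned into macrophages over 7 days in 10 ng/ml macrophage colony-stimulating factor. They were replated without the factor for 24 h. One group of 3 libraries was left untreated and the other group of 3 received 10 nM resolvin D1 (RvD1), a lipid mediator made from docosahexaenoic acid, for 6 h. All cells therefore shared the growth-factor culture and its withdrawal, and the labels describe no vehicle for the untreated group. Whether replicates were different animals or dishes is not stated, so p-values measure only the spread between these libraries, which may be technical.

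Arginases split arginine into ornithine and urea. Arg1 is the cytosolic enzyme and a classical marker of macrophages activated by interleukin-4, while Arg2 is the mitochondrial one. The inducible nitric oxide synthase Nos2 uses the same arginine to make nitric oxide and citrulline, mainly after bacterial or interferon signals, and Slc7a2 is a transporter that brings arginine into activated macrophages. Ornithine is turned into putrescine by ornithine decarboxylase, Odc1, and then into spermidine by Srm and spermine by Sms. Sat1 acetylates spermidine and spermine for export or breakdown. Antizyme, made from Oaz1, binds Odc1 and sends it to the proteasome, and the antizyme inhibitor Azin1, a relative of Odc1 without its activity, takes antizyme away from it. Full-length antizyme is made only when ribosomes shift frame on its messenger, which polyamines promote.

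The frameshift site of the antizyme messengers is shown because Oaz1 and the pseudogene Oaz1-ps cannot be told apart there, which bears on the Oaz1 values. The 60 bases around it were read from the GENCODE M21 transcripts of mm10, with the last codon of the first frame and the stop that follows it, TCCTGA, in capitals. Oaz1 was read at chr10:80828268-80828327 (plus strand), Oaz1-ps at chr17:17345904-17345963 (minus strand) and Oaz2, a second antizyme, at chr9:65686245-65686304 (plus strand).
Oaz1: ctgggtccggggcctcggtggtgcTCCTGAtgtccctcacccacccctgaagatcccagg
Oaz1-ps: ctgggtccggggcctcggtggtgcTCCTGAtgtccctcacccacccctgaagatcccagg
Oaz2: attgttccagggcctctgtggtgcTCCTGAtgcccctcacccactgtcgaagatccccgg
Oaz1 and Oaz1-ps were identical over these 60 bases, and Oaz2 matched Oaz1 at 49 of them. The longest run that Oaz1 shared with Oaz1-ps was 480 bases, and 52.2% of the 50-base windows of the Oaz1 transcript were also found in another gene.

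The arginases are shown at their longest shared run, in capitals, because reads of Arg1, the more abundant of the pair, could otherwise be counted for Arg2. Both stretches are coding sequence in exon 5 of 8, at chr10:24916777-24916836 (minus strand) for Arg1 and chr12:79150765-79150824 (plus strand) for Arg2.
Arg1: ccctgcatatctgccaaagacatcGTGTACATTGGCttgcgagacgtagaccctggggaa
Arg2: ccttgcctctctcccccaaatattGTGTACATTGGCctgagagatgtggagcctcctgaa
The shared run was 12 bases long, and 43 of the 60 bases matched. No 50-base window of Arg1 was found in another gene.

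Values are log2 normalised reads, on which 0 is the floor of 1 normalised read. Untreated libraries had an estimated depth of 9.061 to 14.31 M reads, and RvD1 libraries one of 11.17 to 16.3 M reads. In limma over the 18899 genes above the floor in at least 3 libraries, 1.12% (211 genes) passed a Benjamini-Hochberg adjusted p of 0.05. All 8 macrophage markers examined had a mean log2 value of at least 5, and their summed log2 level was 16.59 to 16.97 in untreated and 16.65 to 17.01 in RvD1 libraries. So did all 6 stromal markers (15.31 to 15.54 untreated, 15.17 to 15.81 with RvD1) and 5 of 8 neutrophil markers (11.52 to 13.34 and 11.97 to 13.34), none of which were at 0. Of 5 T-cell markers, Cd3e and Cd3g were at 0 in every library, but Cd4 had means of 6.27 untreated and 6.61 with RvD1. A mean of at least 5 was also reached by 2 of 3 endothelial markers (summed 7.81 to 8.54 untreated, 8.19 to 9.67 with RvD1). It was reached by 1 marker each of dendritic cells, B cells, and mast cells or basophils. None of the markers examined passed the test, though some did in a fit with replicate numbers as a block, given at the end. The part of stromal, neutrophil and endothelial RNA in the results was not tested. In bulk RNA fewer cells of a type cannot be told apart from less RNA per cell.

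Of the 9 genes other than Arg2, 0 were called higher and 1 (Srm) lower in limma, and 8 did not pass; at an unadjusted p of 0.05, 2 were higher and 2 lower. The background was 0.561% of all tested genes called higher and 0.556% called lower, and 19.9% at the unadjusted p of 0.05. No more is read from the members' counts, since the contrast that gave them chose the set. Among the same 9 the groups did not overlap for 3, Azin1 higher and Oaz1 and Srm lower with RvD1, against 25.4% of all tested genes (12.6% all higher and 12.8% all lower). The median log2 difference over the 10 was 0.14 (0.03 without Arg2), and over all tested genes 0.00. RvD1 libraries gave relatively higher values for longer genes: per SD of length the slope was 0.0226, 0.0223 and 0.0232 with RvD1 and -0.0246, -0.0123 and -0.0312 untreated. They also gave lower values for GC-rich genes, with slopes of -0.0107, -0.107 and -0.0327 against 0.0359, 0.0593 and 0.0547. Each member's difference is therefore given also after correcting each library for length and GC. After that correction none of the 9 passed in limma, against a background of 0.183%. At an unadjusted p of 0.05 the corrected fit called 0 of them higher and 2 lower, against 12.4% of all tested genes.

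**Figure D1:**
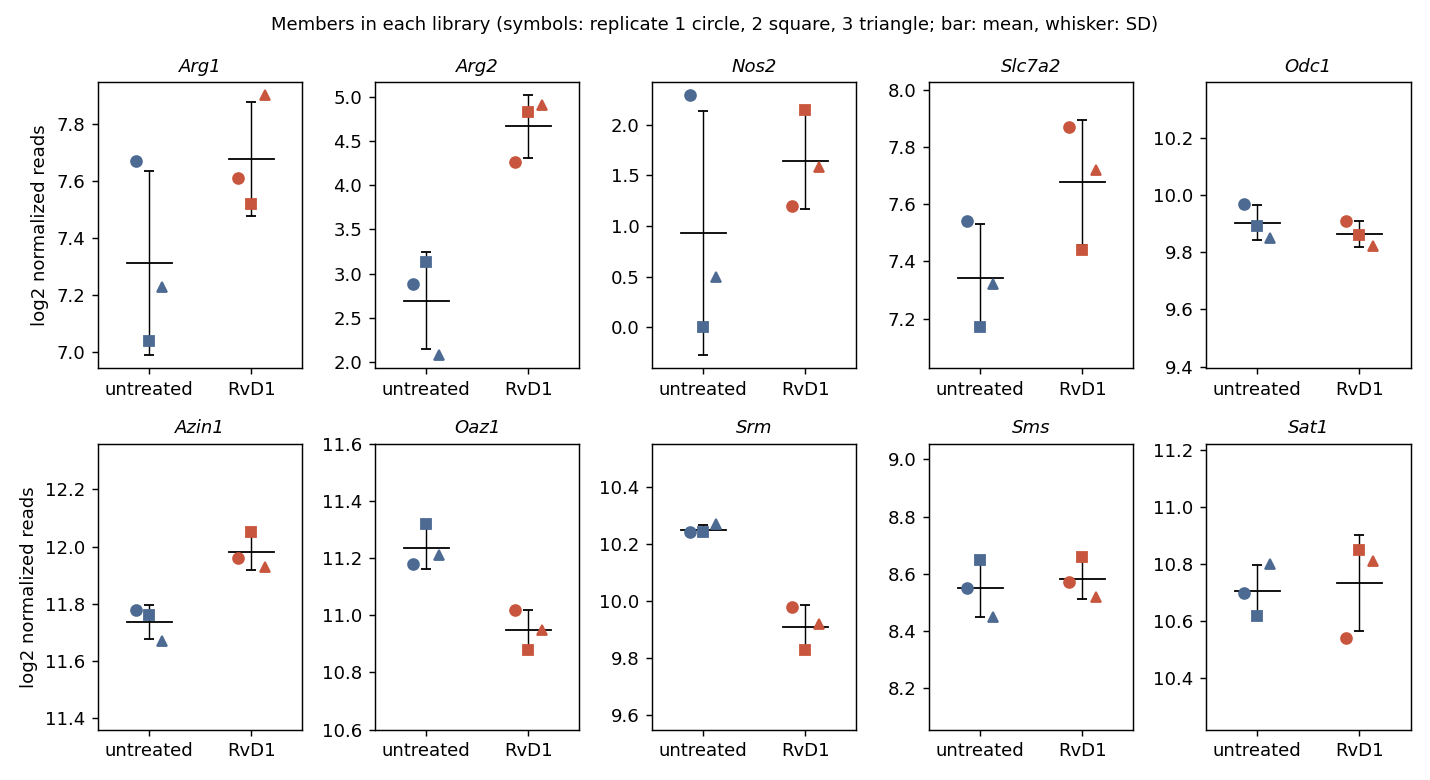
Log2 normalised reads of the 10 genes (y axis, a separate range in each panel) in each of the 3 untreated and 3 RvD1 libraries (points), with the mean of each group as a line and the SD as a whisker. Arg2 and Azin1 lie higher and Oaz1 and Srm lower in every RvD1 library than in every untreated one, and the groups overlap in the other panels.

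The arginases differed in level and in their change. Arg2, on chromosome 12 (mm10, 79130777 to 79156301, plus strand), stood at 2.88, 3.13 and 2.08 in the untreated libraries and at 4.26, 4.83 and 4.90 with RvD1. Every RvD1 library lay above every untreated one. The means were 2.70 ± 0.55 (SD, n = 3) and 4.67 ± 0.35 (SD, n = 3), a log2 difference of 1.97 and a fold of 3.91, the fifth highest of the 18899 genes tested. These levels rest on few reads. The estimated reads were 6, 10 and 3 untreated and 25, 25 and 30 with RvD1. Their approximate sums were 19 of 33.5 M reads and 80 of 40.3 M reads. No interval is given for these sums, since the rise of Arg2 chose the set. After the correction for length and GC the log2 difference was 1.93. The last 285 of the 1428 transcript bases of Arg2 overlap exons of Vti1b, a vesicle-fusion gene on the opposite strand, and the described library steps do not mark strand. Of the 50-base windows of Arg2, 21.2% occur in another gene. Vti1b stood at 9.70, 9.72 and 9.78 untreated and at 9.75, 9.77 and 9.74 with RvD1, a log2 difference of 0.02 (SE 0.05).

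Arg1, on chromosome 10 (24915221 to 24927484, minus strand), was the more abundant arginase in all 6 libraries. It stood at 7.67, 7.04 and 7.23 untreated and at 7.61, 7.52 and 7.90 with RvD1. The groups overlapped, since untreated library 1 was above 2 of the RvD1 libraries. The log2 difference was 0.36 (SE 0.17, 95% interval -0.02 to 0.75), an adjusted p of 0.279 in limma, so that a change between a fold of 0.983 and 1.68 is within the interval. It was 0.34 (SE 0.17) after the correction. Of the reads per kb of both arginases, Arg2 made up 3.58%, 6.45% and 2.83% in the untreated libraries and 9.22%, 13.8% and 11.5% with RvD1. The Arg2 share was thus 4.29% ± 1.9 (SD, n = 3) untreated and 11.5% ± 2.3 (SD, n = 3) with RvD1, a description of the Arg2 values already given, and Arg1 remained the larger part in each library.

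On the nitric oxide side, Nos2 was close to the floor in every library. It stood at 2.29, 0.00 and 0.50 untreated and at 1.20, 2.15 and 1.58 with RvD1, from an estimated 4 reads, none above the floor and 1 read, and then 3, 4 and 3 reads. The groups overlapped. The log2 difference was 0.72 (SE 0.62, 95% interval -0.71 to 2.14; adjusted p = 0.571 in limma) and 0.77 (SE 0.64) after the correction, and no fold is given at this depth. Single libraries moved it widely: it was 1.39 without untreated library 1, 0.25 without untreated library 2 and 0.46 without RvD1 library 2. The transporter Slc7a2, on chromosome 8 (40862396 to 40922308, plus strand), was well above it. It stood at 7.54, 7.17 and 7.32 untreated and at 7.87, 7.44 and 7.72 with RvD1, and RvD1 library 2 lay within the untreated range. The log2 difference of Slc7a2 was 0.33 (SE 0.14, 95% interval 0.02 to 0.65, adjusted p = 0.227 in limma). It was 0.15 (SE 0.15) after the correction for length and GC. The Slc7a2 transcript is the longest of the 10 at 7910 bases, with 43.9% GC, and the parts of length and GC in that shift were not tested.

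Among the genes that govern ornithine decarboxylase, the enzyme itself stayed within its spread. Its 2 regulators lay on opposite sides in the deposited values, but neither passed as reported. After the correction only the groups of Oaz1 stayed apart. Odc1, on chromosome 12 (17544794 to 17551505, plus strand), stood at 9.97, 9.89 and 9.85 untreated and at 9.91, 9.86 and 9.82 with RvD1. These ranges overlapped, with a log2 difference of -0.04 (SE 0.06, 95% interval -0.17 to 0.09; adjusted p = 0.725 in limma) that became 0.02 (SE 0.06) after the correction. Of its 50-base windows, 42.2% also occur in other genes, so part of its reads could be counted elsewhere.

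Azin1, the antizyme inhibitor, on chromosome 15 (38487427 to 38519266, minus strand), stood at 11.78, 11.76 and 11.67 untreated and at 11.96, 12.05 and 11.93 with RvD1. Every RvD1 value was higher, by a log2 difference of 0.24 (SE 0.06, 95% interval 0.11 to 0.37) that missed the threshold at an adjusted p of 0.0778 in limma. The corrected Azin1 values overlapped, at 11.85, 11.88 and 11.78 untreated and 11.93, 11.87 and 11.84 with RvD1, and the corrected difference was 0.05 (SE 0.05). Its transcript is 4871 bases long with 39.3% GC.

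Oaz1, antizyme, on chromosome 10 (80826656 to 80829290, plus strand), stood at 11.18, 11.32 and 11.21 untreated and at 11.02, 10.88 and 10.95 with RvD1. Every RvD1 value was lower, by a log2 difference of -0.29 (SE 0.06, 95% interval -0.43 to -0.15) with an adjusted p of 0.0628 in limma. Corrected for length and GC, the Oaz1 difference was -0.17 (SE 0.05, adjusted p = 0.260 in limma), and the groups still did not overlap. That correction used the longest Oaz1 transcript, of 2526 bases with 55.7% GC, which keeps an intron. The longest protein-coding one has 1071 bases, and a correction by it was not run for Oaz1. Without RvD1 library 1 the uncorrected difference was -0.32 and passed (adjusted p = 0.0497 in limma). The near-identical Oaz1-ps stood at 11.32, 11.47 and 11.45 untreated and at 11.25, 11.08 and 11.23 with RvD1, a log2 difference of -0.23 (SE 0.07) that became 0.01 after the correction. The sum of Oaz1 and Oaz1-ps, an alternative added after the data were seen, was 12.25, 12.40 and 12.33 untreated and 12.14, 11.98 and 12.10 with RvD1. Its log2 difference was -0.26 (SE 0.06, adjusted p = 0.0831 in limma), the same sign as the uncorrected difference of each gene of the pair. The sum was not fitted after the correction, where Oaz1-ps alone was at 0.01.

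The difference of log2 values between Azin1 and Oaz1 within a library, which compares libraries and not the 2 genes' levels, was 0.60, 0.44 and 0.47 untreated and 0.95, 1.17 and 0.97 with RvD1. It was larger in every RvD1 library, at 1.03 ± 0.12 (SD, n = 3) against 0.50 ± 0.08 (SD, n = 3). That separation had to follow, since every RvD1 value was higher for Azin1 and lower for Oaz1, so it adds nothing to them. With corrected values the difference was 0.70, 0.62 and 0.65 untreated and 0.89, 0.87 and 0.87 with RvD1, still apart but with a smaller gap. The corrected Oaz1 values used here rest on the transcript that keeps an intron. These differences combine values already tested and were given no test of their own.

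**Figure D2:**
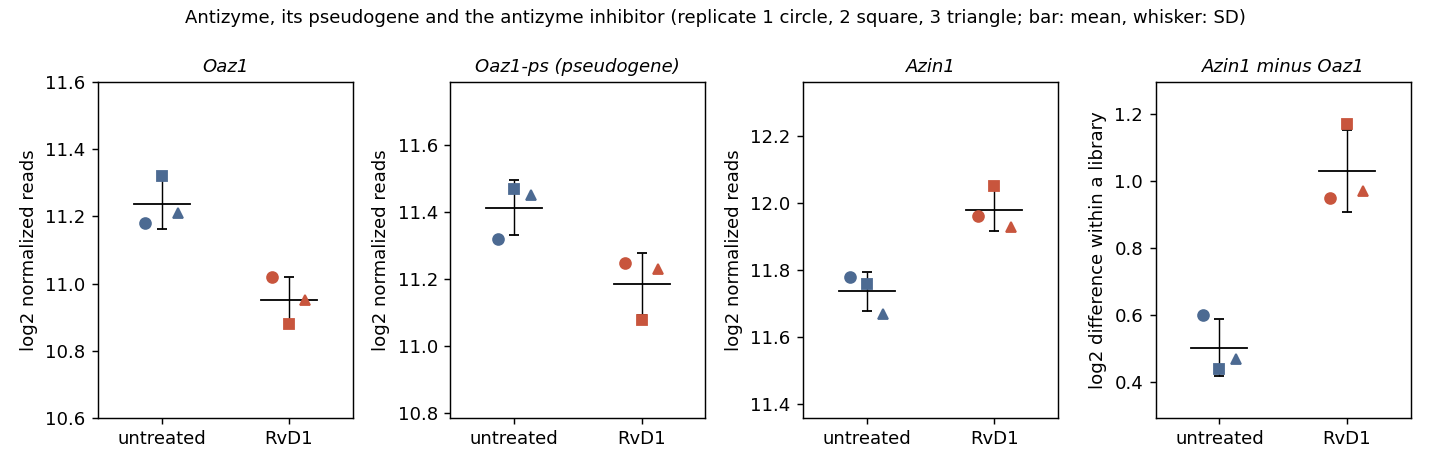
Log2 normalised reads (y axes) of Oaz1, Oaz1-ps and Azin1 in each library, and in the last panel the log2 difference of Azin1 and Oaz1 within a library, with group means as lines and SD as whiskers. The Azin1 minus Oaz1 difference is larger in all 3 RvD1 libraries than in any untreated library, which follows from the Azin1 and Oaz1 panels.

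Downstream, the spermidine synthase Srm was the member called lower. Srm, on chromosome 4 (148591503 to 148594993, plus strand), stood at 10.24, 10.24 and 10.27 untreated and at 9.98, 9.83 and 9.92 with RvD1. The groups did not overlap. Srm fell by 0.34 on the log2 scale (SE 0.06, 95% interval -0.47 to -0.21), a fold of 0.789, with an adjusted p of 0.0396 in limma. Srm is the most GC-rich of the 10 at 59.8% and short, at 1338 bases. Its corrected values were 10.16, 10.13 and 10.16 untreated and 10.01, 10.04 and 9.98 with RvD1, still apart, with a difference of -0.14 (SE 0.05) that no longer passed (adjusted p = 0.285 in limma). Leaving out any single library except RvD1 library 1 also ended the call, with differences between -0.35 and -0.30. Only 0 to 5 genes of the whole table passed in those fits, so the lost call is not particular to Srm. Without RvD1 library 1 the difference was -0.38 (adjusted p = 0.0373 in limma).

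The spermine synthase Sms, on the X chromosome (157443855 to 157492287, minus strand), stood at 8.55, 8.65 and 8.45 untreated and at 8.57, 8.66 and 8.52 with RvD1, with overlapping groups. Its log2 difference was 0.03 (SE 0.08, 95% interval -0.14 to 0.21; adjusted p = 0.847 in limma) and, corrected, -0.08 (SE 0.07), and 28.7% of its 50-base windows also occur in other genes. The Srm minus Sms difference within a library was 1.69, 1.59 and 1.82 untreated and 1.41, 1.17 and 1.39 with RvD1, but after the correction the groups overlapped. Sat1, the acetyltransferase of polyamine breakdown, on the X chromosome (155213132 to 155216449, minus strand), stood at 10.70, 10.62 and 10.80 untreated and at 10.54, 10.85 and 10.81 with RvD1. RvD1 library 1 was the lowest of the 6 Sat1 values and RvD1 library 2 the highest. The log2 difference of Sat1 was 0.02 (SE 0.09, 95% interval -0.18 to 0.23; adjusted p = 0.909 in limma) and -0.05 (SE 0.08) after the correction.

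**Figure D3:**
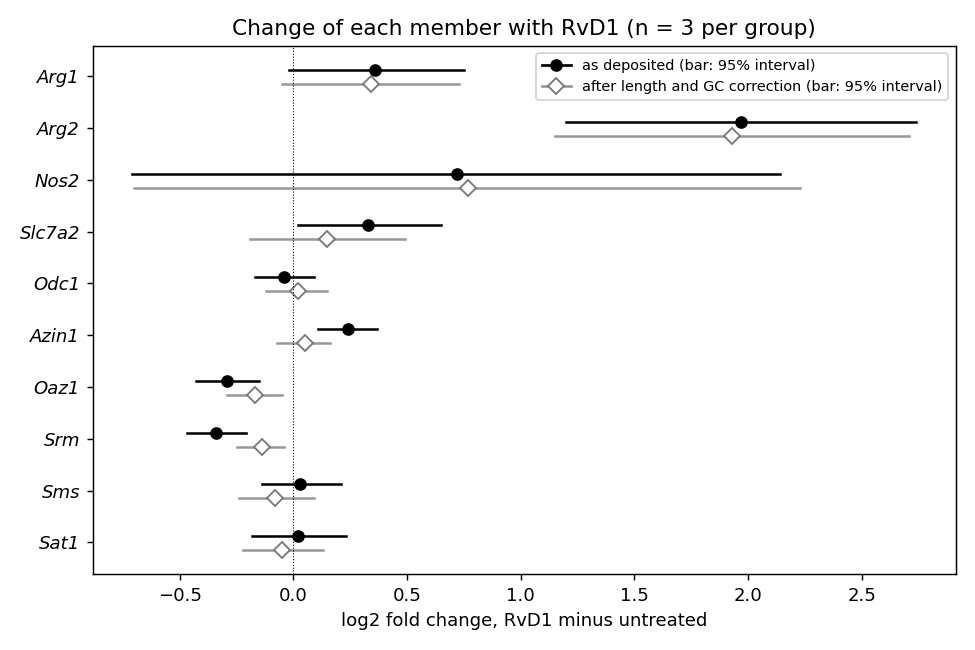
Log2 difference, RvD1 minus untreated (x axis), of the 10 genes with 95% intervals as bars, as deposited and after correction for length and GC. The differences of Azin1, Slc7a2, Oaz1 and Srm move toward 0 after the correction, while that of Arg2 goes from 1.97 to 1.93.

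Per kb of the longest annotated transcript, the members spanned a wide range of levels in untreated cells. Sat1 was highest at 10.27 ± 0.09 log2 normalised reads per kb (SD, n = 3), and Nos2 lowest at -1.14 ± 1.20 (SD, n = 3). Oaz1 (9.90 ± 0.07) and Srm (9.83 ± 0.02) followed Sat1 and overlapped, then Azin1 (9.45 ± 0.06) and Odc1 (8.76 ± 0.06). Arg1 (6.75 ± 0.32) overlapped Sms (6.66 ± 0.10), and Slc7a2 (4.36 ± 0.19) and Arg2 (2.18 ± 0.55) came after them. With RvD1 the means of Azin1 (9.70), Oaz1 (9.61) and Srm (9.49) lay close together, and the ranges of neighbours overlapped. The order of the top 4 depends on which length is used. By the longest protein-coding transcript, an alternative added after the data were seen, Oaz1 was highest in untreated cells (11.14) and Sat1 next (10.49), because the longest Oaz1 transcript keeps an intron. From Odc1 downward the order did not change with the length used.

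**Figure D4:**
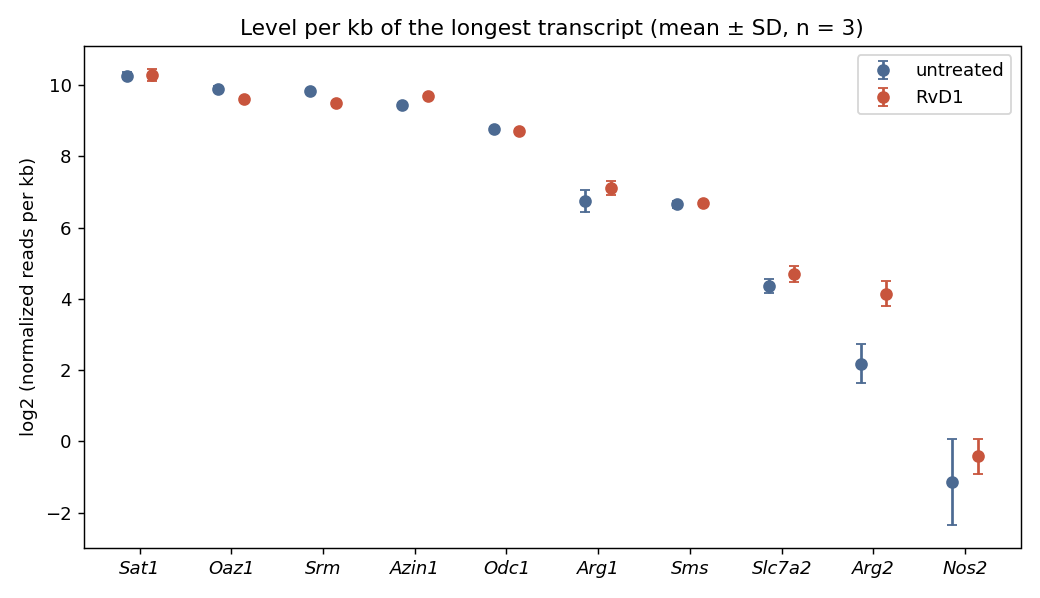
Log2 normalised reads per kb of the longest annotated transcript (y axis) of the 10 genes in untreated and RvD1 cells, as means with SD over 3 libraries, ordered by the untreated mean. Sat1, Oaz1, Srm and Azin1 are at the top and Arg2 and Nos2 at the bottom in both groups.

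The wider pathway was read from a list of 51 genes, of which 44 were tested. None passed in limma; at an unadjusted p of 0.05, 3 were higher and 4 lower, while 19.9% of all tested genes passed that level. Their median log2 difference was -0.01, with 21 positive and 23 negative. Cps1 and Otc, the urea cycle enzymes of the liver mitochondrion, were at 0 in every library, as were Agmat and Satl1, and Nags, Slc25a2 and Nos1 were too low to test.

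All 7 genes of arginine supply were tested. The smallest p-values were those of Slc7a7, a subunit of a cationic amino acid exporter, with a log2 difference of 0.20 (SE 0.10, adjusted p = 0.313 in limma) and 0.26 (SE 0.10) corrected, and Asl, which releases arginine from argininosuccinate, with -0.17 (SE 0.09, adjusted p = 0.330) and -0.06 (SE 0.07) corrected. Of 16 genes of the urea cycle and ornithine use, 11 were tested. Slc25a15, which exchanges ornithine across the mitochondrial membrane, stood at 7.35, 7.29 and 7.15 untreated and at 7.59, 7.57 and 7.59 with RvD1. Its groups did not overlap, and its log2 difference was 0.32 (SE 0.09, adjusted p = 0.110 in limma) and 0.27 (SE 0.09) after the correction. Pycrl, a proline-forming reductase, had -0.17 (SE 0.08, adjusted p = 0.298 in limma), which became -0.01 (SE 0.08) after the correction.

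In the nitric oxide group 10 of 11 genes were tested. Pts, an enzyme of tetrahydrobiopterin synthesis, which supplies the cofactor of nitric oxide synthases, stood at 6.96, 6.89 and 7.04 untreated and at 7.21, 7.63 and 7.61 with RvD1. Every RvD1 value was higher, by 0.52 (SE 0.13, adjusted p = 0.0836 in limma) and, corrected, by 0.36 (SE 0.11). Spr, which completes the same cofactor, had a log2 difference of -0.24 (SE 0.10, adjusted p = 0.228 in limma) and -0.22 (SE 0.10) corrected.

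In the polyamine group 16 of 17 genes were tested. Eif5a, the translation factor that carries hypusine, a residue made from spermidine, stood at 13.01, 12.98 and 12.92 untreated and at 12.72, 12.68 and 12.65 with RvD1. Every RvD1 value was lower, with a log2 difference of -0.28 (SE 0.05) that missed the threshold at an adjusted p of 0.0527 in limma and was -0.17 (SE 0.06) after the correction. Dohh, which completes hypusine, was chosen for mention after its values were seen. It stood at 9.58, 9.57 and 9.71 untreated and at 9.42, 9.11 and 9.30 with RvD1, a log2 difference of -0.34 (SE 0.09, adjusted p = 0.0868 in limma) and -0.11 (SE 0.06) corrected. The other hypusine genes of the list, Dhps and Eif5a2, had overlapping groups. Dhps had -0.14 (SE 0.09, adjusted p = 0.445 in limma) and -0.01 (SE 0.10) corrected. Eif5a2 went the other way, with 0.20 (SE 0.09, adjusted p = 0.255 in limma) and 0.00 (SE 0.07) corrected. Atp13a3, a transporter linked to polyamine uptake, stood at 11.62, 11.54 and 11.40 untreated and at 11.78, 11.91 and 11.77 with RvD1. Its log2 difference of 0.30 (SE 0.07, adjusted p = 0.0791 in limma) became 0.06 (SE 0.05) after the correction.

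**Figure D5:**
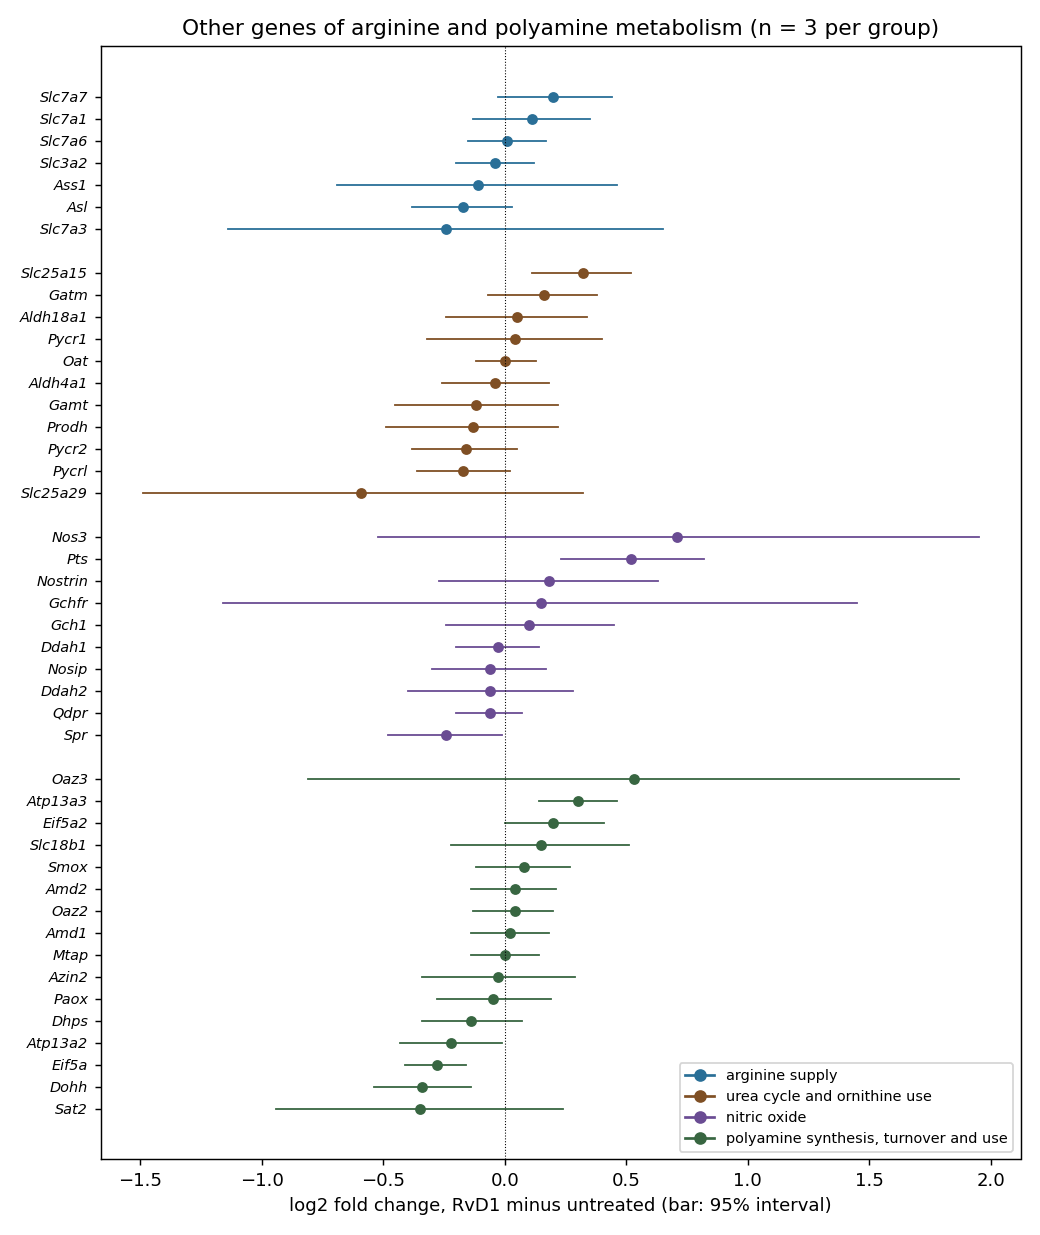
Log2 difference, RvD1 minus untreated (x axis), of the 44 tested genes of the wider list by role, with 95% intervals as bars. None passed the adjusted threshold, and 21 differences are positive and 23 negative.

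Genes with the pattern most like that of Arg2 were taken as the 5 tested protein-coding genes, of 14202, with the smallest root-mean-square difference of centred log2 values over the 6 libraries. These were 5730507C01Rik (0.35), Zfp964 (0.37), Slc9a4 (0.37), AC132233.1 (0.39) and Ppp1r3c (0.39). All 5 are near the floor; Ppp1r3c was at 0 in the 3 untreated libraries and at 1.93, 1.77 and 1.99 with RvD1. Among the 11120 genes with a mean of at least 5 the nearest were Ankrd37 (0.46) and Tlr5 (0.51), and none of the 5 nearest there was among the first 5. Ankrd37 stood at 4.37, 4.18 and 4.27 untreated and at 6.09, 5.78 and 5.97 with RvD1, and Tlr5, the flagellin receptor, at 5.61, 5.75 and 5.40 and then 6.16, 6.72 and 7.05. These genes were selected for likeness to Arg2 in the same libraries, so their differences are a description.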

How the data were processed

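RNA from the 6 macrophage cultures was sequenced by the submitters. The authors deposited log2 normalised reads per gene in 1 table for all libraries, with decimal commas. Per the submitters' processing notes, TopHat2 2.0.7 and mm10 were used; how reads were counted and normalised is not stated in these sources. Raw counts were not used here: only 40.7% to 51.55% of low values lay within 0.02 of a whole read, so no count test was run, and estimated reads are approximate. RvD1 was compared with untreated by limma 3.58.1 (R 4.3.3) with an intensity trend and Benjamini-Hochberg adjustment over 18899 genes above 0 in at least 3 libraries. Of the 38087 identifiers, 36308 matched GENCODE M21. Length and GC were corrected per library by regression. The fit was tested on simulated reads with the same dispersion for all genes and no length, GC or replicate effects, so that test does not cover these effects. Members and lists were chosen with earlier results of these data known. Named were all 10 members, the wider-list genes that passed or had the 2 smallest p-values of their role, and the 5 genes most like Arg2. Dohh, Dhps and Eif5a2 were added after the values were seen. Alternatives were other filters, quantile normalisation, a pseudocount, no trend, a replicate block, the correction and each library left out.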

Additional observations from a re-analysis of the deposited data

How the results depend on the processing

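Over the whole table, 211 genes passed as reported, 12 without the filter on low values, 464 with a mean of at least 5, 1 without the intensity trend, 34 after the length and GC correction and 0 to 451 with 1 library left out. Of the 9 members other than Arg2, 1 (Srm) passed as reported, and 0 without the filter, without the trend or after the correction. With a mean of at least 5, Srm (adjusted p = 0.0263 in limma) and Oaz1 (0.0444) passed. With 1 library left out, Srm and Oaz1 passed without RvD1 library 1, and the other omissions left 0. Of the wider list 0 passed in limma as reported (7 at an unadjusted p of 0.05), 1 with a mean of at least 5 and 0 to 3 with 1 library left out, the 3 being without RvD1 library 1. With the replicate block 1896 genes passed, 10% of those tested, and 4 genes of the wider list. Slc7a2 (adjusted p = 0.0485 in limma), Azin1 (0.0135), Oaz1 (0.0208) and Srm (0.00964) passed there too. Among the cell type markers, Cd14, Adgre1, S100a8, Ltf, Cdh5, Kdr and Cpa3 were higher and Cd68 lower with the block (adjusted p under 0.05 in limma). The other tested markers did not pass it. With the block and the correction together 771 genes and 1 of the wider list passed, and Slc7a2, Azin1, Oaz1 and Srm did not. Whether the replicate numbers pair the libraries was not settled. The deviations of same-numbered libraries correlated at 0.301, -0.08 and 0.417. Untreated library 1 correlated with RvD1 library 3 at -0.393, and untreated library 3 with RvD1 library 1 at -0.383. Untreated library 2 correlated best with RvD1 library 1, at 0.088. Small differences changed sign. Odc1 went to 0.02 after the correction, with and without the block, Sms to -0.08 in both and Sat1 to -0.05 in both. With 1 library left out the difference of Nos2 ranged from 0.25 to 1.39, Arg1 from 0.22 to 0.54, Slc7a2 from 0.24 to 0.45, Sms from -0.01 to 0.08 and Sat1 from -0.03 to 0.12. The difference of Arg2 ranged from 1.66 to 2.19 over the alternatives. The alternative scalings that need raw counts were not run, because the table holds log2 values. The cause of these changes was not tested. Depth limits Nos2 and Arg2 most.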
